A study of Homo sapiens with 6 samples.

Results

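Autophagy and lysosome genes were followed in C4-2 cells, a castration-resistant human prostate cancer cell line derived from LNCaP. The genes were chosen by name and function, as a list of 43 symbols. CTSL1 is an older name of CTSL, so the list holds 42 genes, and all 42 had a row among the 55765 gene symbols of the counts and passed the filter on low counts. Of these, 12 encode lysosomal proteins and 3 encode transcription factors of the MiT/TFE family. The other 27, called autophagosome genes here, encode proteins of autophagosome formation, cargo receptors and UVRAG. Cells growing in DMEM with 5% FBS received for 72 h either DMSO, the solvent control, or the synthetic androgen R1881 at 1 nM, a supraphysiological androgen level (SAL). RNA sequencing was performed on 3 libraries per condition, numbered 1 to 3 in each, all from this 1 cell line. The comparison asks how the transcripts of the degradation machinery respond to an androgen level that the study examines in relation to cellular senescence.

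In macroautophagy a cup-shaped membrane, the phagophore, grows around cytoplasmic cargo, closes to form the autophagosome and fuses with the lysosome, where acid hydrolases degrade the content. The ULK kinase complex starts the process, a phosphatidylinositol 3-kinase (PI3K) complex marks the membrane with PI3P, and 2 ubiquitin-like conjugation systems attach ATG8 proteins to the membrane, which then hold cargo receptors. TFEB, TFE3 and MITF bind E-box sequences named CLEAR elements in promoters of lysosomal genes, and mTORC1 on the lysosomal surface restrains both these factors and the ULK kinase.

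Between 6931042 and 9776990 counts per library remained after rRNA genes, which had taken 11.9% to 27.8% of gene counts, were removed. Members had between 14 counts (OPTN in DMSO replicate 1) and 7096 counts (PSAP in SAL replicate 2) in a library. Of the markers of luminal prostate cells, KLK3 had 587, 1200.4 and 612 CPM in DMSO and 1482, 2535 and 1411 CPM in SAL, and the keratin gene KRT8 had 56.1, 277 and 135 CPM in DMSO and 319, 1359 and 791 CPM in SAL. Markers of basal, neuroendocrine, fibroblast, endothelial and leukocyte cells, 14 in all, summed to 7.06 to 26.5 CPM in DMSO and 7.68 to 22.4 CPM in SAL, with KRT5, COL1A2, CDH5 and PTPRC at 0 counts in each library. CPM, counts scaled to a TMM-adjusted library size, are relative levels in bulk RNA, in which fewer cells that express a gene and less of its RNA per cell cannot be told apart.

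SAL raised 14 of the 42 genes and lowered none. A gene was called when its Benjamini-Hochberg adjusted p from edgeR's quasi-likelihood test with the replicate number as a block was under 0.05. The called share, 33.3%, stood against 11.5% of all 16835 genes tested that were up-regulated and 9.37% that were down-regulated. At an unadjusted p under 0.05, 1 member, ATG7, was lower. DESeq2 with the block called 11 members up, against 8.24% of all genes that this tool called up, and none down, against 5.2%. In all 3 same-numbered pairs 22 members were higher in SAL, against 25.9% of all genes, and 3 (ATG4D, ATG7 and MITF) were lower, against 25.3% of all genes. The median log2 fold change of the members was 0.15 and that of all genes -0.0011.

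The summary values of autophagosome and lysosomal genes lay close to each other. Of 27 autophagosome genes 10 were up-regulated (37%), and their median response was 0.20 in log2 fold change, with a range from -0.31 to 2.17 and 21 of 27 higher in SAL. All 3 cargo receptors are among the 10, and 1 of them, OPTN, holds the 2.17. Of 12 lysosomal genes 4 were up-regulated (33.3%), with a median of 0.17, a range from -0.12 to 0.72 and 10 of 12 higher. Of all 16835 genes tested, 11.5% were up-regulated and 8392 were higher in SAL. In pairs 1, 2 and 3 the median difference was 0.29, 0.14 and 0.18 for autophagosome genes and 0.16, 0.13 and 0.32 for lysosomal genes, so neither group was the higher in every pair. Apart from WIPI1, GABARAPL1 and OPTN, no autophagosome gene exceeded the largest lysosomal change, that of CTSD. The difference between the groups was not tested.

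**Figure D1:**
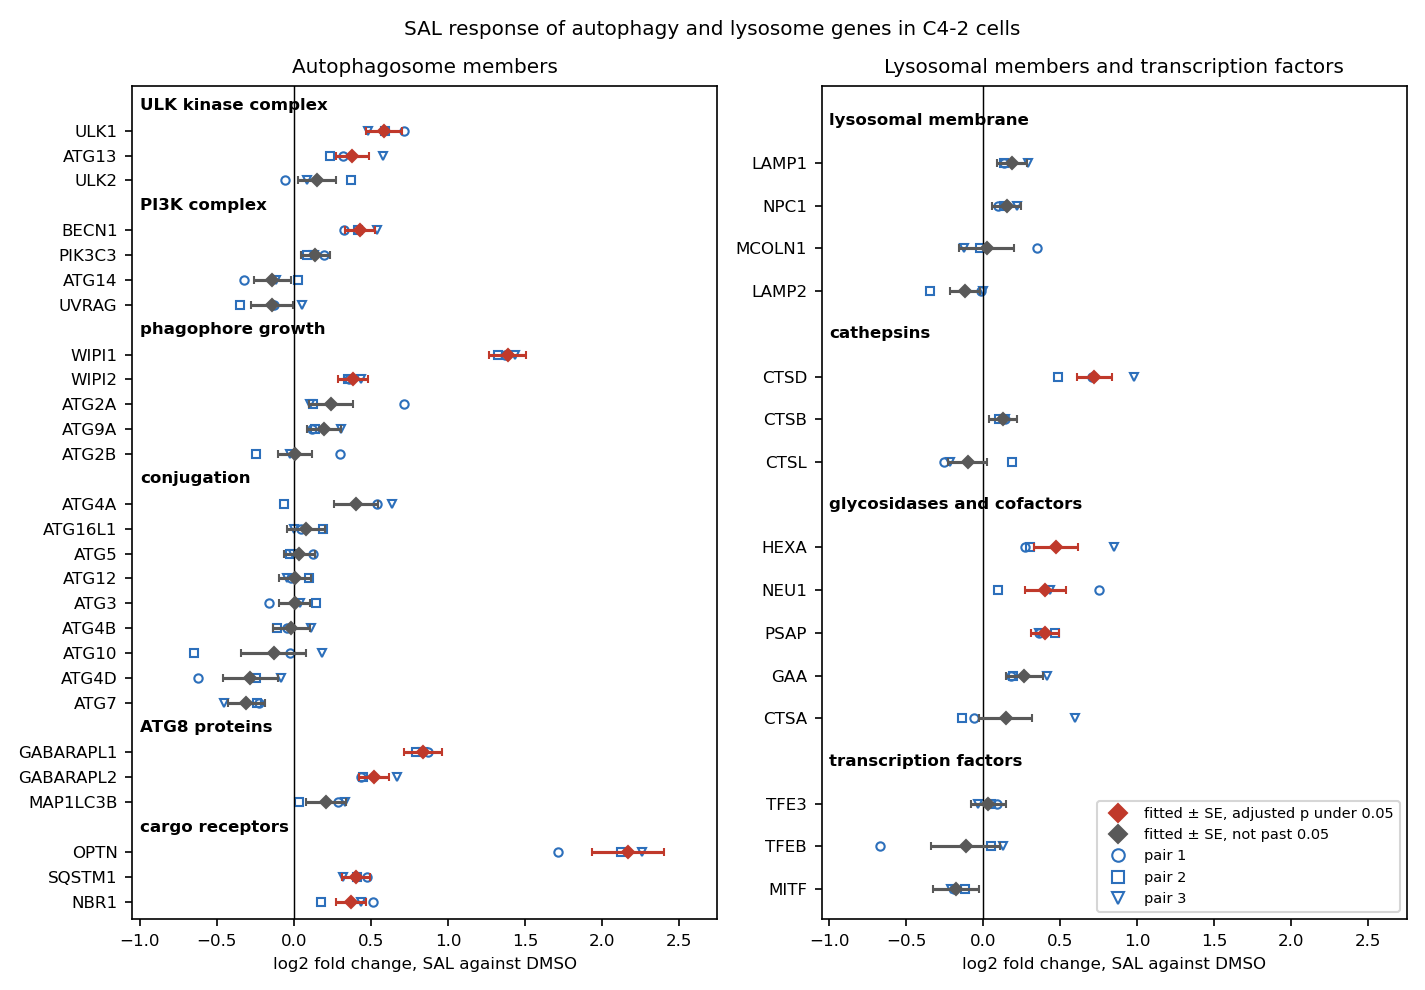
Log2 fold change of SAL against DMSO for each of the 42 genes, grouped by role, with the fitted value and its standard error (diamonds, red where the adjusted p was under 0.05) and the difference of log2 CPM in each same-numbered pair (open symbols). The 14 red diamonds all lie right of 0, from 0.37 (NBR1) to 2.17 (OPTN), and none is among the 9 conjugation genes, the 4 lysosomal membrane genes or the 3 transcription factors.

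**Figure D2:**
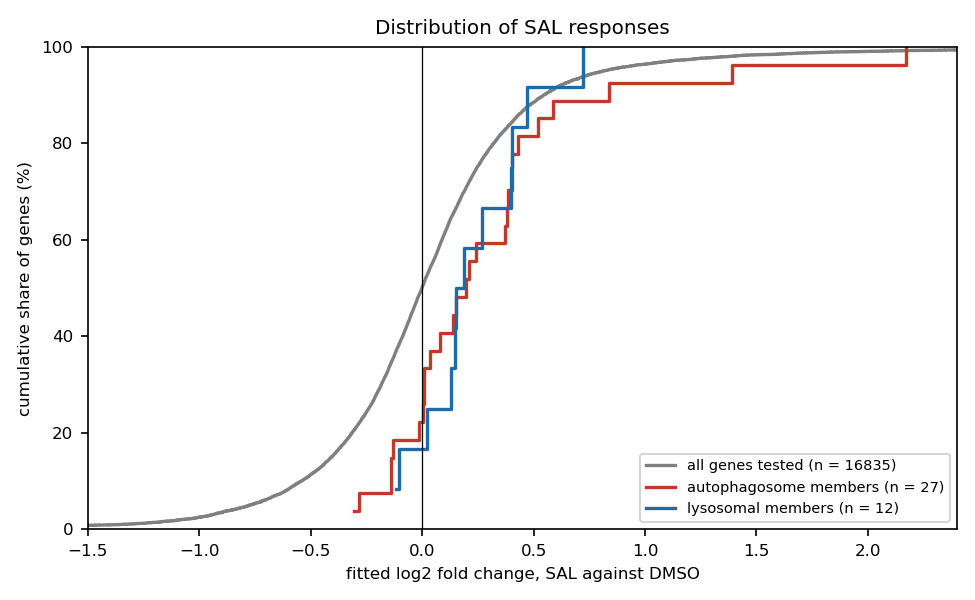
Cumulative share of genes (y axis, %) by fitted log2 fold change (x axis) for all 16835 genes tested, the 27 autophagosome genes and the 12 lysosomal genes. The medians are -0.0011, 0.20 and 0.17.

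The transcription factors of the MiT/TFE family did not pass the test, and none of the 3 had an unadjusted p under 0.05 by edgeR or DESeq2. TFEB, regarded as the main activator of lysosomal genes, had 4.83, 10.4 and 5.75 CPM in DMSO replicates 1, 2 and 3 and 2.95, 10.7 and 6.28 CPM in the SAL replicates. Its fitted change was -0.11 ± 0.22 (SE, with an adjusted p of 0.775), the pairs gave -0.67, 0.047 and 0.12, and it turned to 0.083 without replicate 1. TFE3 had 12.4, 65.4 and 35.7 CPM in DMSO replicates 1, 2 and 3 and 13.2, 67.8 and 34.9 CPM in the SAL replicates, a log2 fold change of 0.031 ± 0.11 (SE, with an adjusted p of 0.884). MITF had 12.9, 16.7 and 20.4 CPM in DMSO replicates 1, 2 and 3 and 11.3, 15.3 and 17.6 CPM in the SAL replicates, and at -0.18 ± 0.15 (SE, with an adjusted p of 0.460) it was lower in each pair by less than the spread between replicates. In all 3 the levels of the groups overlapped. These values concern transcript levels, whereas TFEB and TFE3 are regulated to a large extent through phosphorylation and entry into the nucleus, which these data do not measure.

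Of the 3 listed genes of the ULK complex, which starts autophagy, 2 rose. ULK1, the kinase itself (chromosome 12, 132379167 to 132407695 on the plus strand in GRCh37), had 8.80, 47.4 and 27.5 CPM in DMSO replicates 1, 2 and 3 and 14.6, 71.5 and 38.6 CPM in the SAL replicates. Replicate 2 was the highest and replicate 1 the lowest in both conditions, so the groups overlapped, yet SAL was higher in each pair, by 0.71, 0.59 and 0.48 on the log2 scale. The fitted log2 fold change was 0.59 ± 0.12 (SE, with an adjusted p of 0.00232), a 1.5-fold level. ATG13, the adaptor that holds the complex together, had 19.3, 89.3 and 44.2 CPM in DMSO replicates 1, 2 and 3 and 24.2, 105 and 66.3 CPM in the SAL replicates and a log2 change of 0.38 ± 0.11 (SE, with an adjusted p of 0.0206). Its adjusted p was 0.0786 with DESeq2 and 0.414 without replicate 3 (log2 fold change 0.27). ULK2, the related kinase, had 18.8 to 46.4 CPM over the libraries and a log2 change of 0.15 (adjusted p = 0.447). Of further subunits outside the list, C12orf44, now ATG101, rose, with 0.67 (adjusted p = 0.0123 by edgeR). RB1CC1 was not called, with 0.014 (adjusted p = 0.945).

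Of the 4 listed genes of the PI3K complex only BECN1 was called. BECN1 encodes Beclin 1, the subunit that nearly all forms of this complex share (chromosome 17, 40962152 to 40985367 on the minus strand in GRCh37), and had 67.9, 73.8 and 67.5 CPM in DMSO replicates 1, 2 and 3 and 85.0, 98.8 and 98.1 CPM in the SAL replicates. Each SAL library was above each DMSO library, one of 4 members without overlap between the groups in this direction, against 3.78% of all genes. The pairs gave 0.32, 0.42 and 0.54, and the fitted value was 0.43 ± 0.10 (SE, with an adjusted p of 0.00469). Without replicate 3 the value was 0.37 (adjusted p = 0.205). PIK3C3, the lipid kinase VPS34, had 83.1, 43.3 and 75.5 CPM in DMSO and 95.0, 46.0 and 82.7 CPM in SAL and a log2 change of 0.14 (adjusted p = 0.348). The alternative subunits ATG14, which directs the complex to autophagosomes, and UVRAG, which directs it to endosomes, had log2 fold changes of -0.14 (adjusted p = 0.464) and -0.14 (adjusted p = 0.525), each lower in 2 of 3 pairs.

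Among the genes of phagophore growth WIPI1 showed the second largest change of the 42. WIPI1 and WIPI2 bind PI3P on the growing membrane, and WIPI2 recruits the conjugation machinery to it. WIPI1 (chromosome 17, 66417089 to 66453654 on the minus strand in GRCh37) had 15.4, 22.8 and 15.2 CPM in DMSO replicates 1, 2 and 3 and 40.2, 57.7 and 41.6 CPM in the SAL replicates. The lowest SAL library was well above the highest DMSO library, and the pairs gave nearly the same differences of 1.37, 1.33 and 1.44. The fitted log2 fold change was 1.39 ± 0.12 (SE, with an adjusted p of 6.73e-07), a 2.62-fold level. Of its annotated exon bases 24.4% are shared with ARSG on the other strand, which changed by 0.36 (adjusted p = 0.0370), and without strand information reads from the 2 genes cannot be told apart there.

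WIPI2 (chromosome 7, 5229827 to 5273471 on the plus strand in GRCh37) had 32.7, 96.1 and 58.4 CPM in DMSO replicates 1, 2 and 3 and 42.01, 123 and 79.2 CPM in the SAL replicates. The 3 replicate numbers were far apart in both conditions, but the rise within pairs varied little, at 0.36, 0.35 and 0.44. Its log2 fold change was 0.38 ± 0.10 (SE, with an adjusted p of 0.00963), and without replicate 3 it was 0.36 (adjusted p = 0.237). The lipid transfer proteins ATG2A and ATG2B and the scramblase ATG9A, which supply the membrane with lipid, had log2 fold changes of 0.24 (adjusted p = 0.267), 0.0075 (adjusted p = 0.972) and 0.20 (adjusted p = 0.232). ATG2B had 103 to 177 CPM and was higher in 1 of 3 pairs.

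None of the 9 conjugation genes was called by edgeR or by DESeq2. At an unadjusted p under 0.05, ATG4A was higher and ATG7 lower by edgeR, and by DESeq2 ATG4A was higher. The E1-like enzyme ATG7, which activates both ATG12 and the ATG8 proteins, had 29.1, 38.0 and 34.6 CPM in DMSO and 24.8, 32.1 and 25.3 CPM in SAL. It was lower in each pair, with differences of -0.23, -0.24 and -0.45 and a fitted log2 change of -0.31 ± 0.12 (SE, with an adjusted p of 0.0832). It passed the threshold in the fit corrected for GC content and length, at -0.33 (adjusted p = 0.0409). VGLL4, whose exons overlap 18.1% of its exon bases on the other strand, had a change of -0.47 (adjusted p = 0.00626). The protease ATG4A, which trims and releases ATG8 proteins, had 30.6, 17.2 and 25.3 CPM in DMSO and 44.6, 16.4 and 39.4 CPM in SAL. SAL was higher in pairs 1 and 3 and not in pair 2, and the log2 fold change was 0.40 ± 0.14 (SE, with an adjusted p of 0.0616), but 0.57 without replicate 2 (adjusted p = 0.00941). ATG4B and ATG4D had -0.016 and -0.28.

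The E2-like enzymes ATG3 and ATG10 had log2 fold changes of 0.0041 (adjusted p = 0.984) and -0.13 (adjusted p = 0.725). For the subunits of the ATG12-ATG5-ATG16L1 complex, which places ATG8 proteins on the membrane, the values were 0.0074 for ATG12, 0.036 for ATG5 and 0.081 for ATG16L1, with standard errors of 0.11, 0.10 and 0.12. The sizes of these 3 changes were all under their standard errors.

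The ATG8 proteins tether cargo and drive fusion, and 2 of the 3 listed genes were up-regulated. A further ATG8 gene outside the list, GABARAP, rose as well, with a log2 change of 0.34 (adjusted p = 0.0196 by edgeR). GABARAPL1 (chromosome 12, 10365057 to 10375727 on the plus strand in GRCh37) had 13.1, 30.5 and 17.1 CPM in DMSO replicates 1, 2 and 3 and 24.2, 53.0 and 30.8 CPM in the SAL replicates. Although the highest DMSO library, replicate 2, lay within the SAL range, the pairs differed by 0.87, 0.79 and 0.84. The fitted log2 fold change was 0.84 ± 0.12 (SE, with an adjusted p of 0.000148), a 1.79-fold level. GABARAPL2 (chromosome 16, 75600273 to 75611779 on the plus strand in GRCh37) had 77.3, 81.6 and 46.1 CPM in DMSO replicates 1, 2 and 3 and 105, 112 and 73.6 CPM in the SAL replicates, with replicate 3 the lowest in both conditions. Its log2 fold change was 0.52 ± 0.10 (SE, with an adjusted p of 0.00129), and 0.45 without replicate 3 (adjusted p = 0.119).

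MAP1LC3B, whose product LC3B is the usual marker of autophagosomes, had 12.02, 36.8 and 25.0 CPM in DMSO replicates 1, 2 and 3 and 14.7, 37.7 and 31.5 CPM in the SAL replicates. SAL was higher in each pair, by 0.29, 0.036 and 0.33, but the fitted log2 fold change of 0.21 ± 0.13 (SE, with an adjusted p of 0.291) did not pass the test. The near-identical copy MAP1LC3B2 had 15, 45 and 19 counts in the DMSO libraries and 28, 107 and 57 in the SAL libraries, and a log2 change of 1.10 ± 0.24 (SE, with an adjusted p of 0.00397). Reads aligned to more than 1 place were not counted, so the level of MAP1LC3B is uncertain.

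All 3 cargo receptors of the list rose, OPTN the most of all 42 genes. Optineurin, its product, links ubiquitin-marked mitochondria and bacteria to ATG8 proteins. OPTN (chromosome 10, 13141449 to 13180308 on the plus strand in GRCh37) had 14, 21 and 17 counts in the DMSO libraries and 49, 122 and 96 in the SAL libraries. This corresponded to 1.73, 2.87 and 2.27 CPM in DMSO replicates 1, 2 and 3 and 6.28, 13.4 and 11.8 CPM in the SAL replicates. The groups were clearly apart, and the pairs differed by 1.72, 2.13 and 2.26. With a log2 fold change of 2.17 ± 0.24 (SE, with an adjusted p of 8.66e-06), SAL was at 4.50 times the DMSO level, though at the lowest level per length of the members in DMSO, 0.446 ± 0.111 CPM per kb of exon (SD, n = 3).

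SQSTM1 encodes p62, the receptor of ubiquitinated protein aggregates (chromosome 5, 179233398 to 179265078 on the plus strand in GRCh37), and had 95.3, 375 and 191 CPM in DMSO replicates 1, 2 and 3 and 133, 498 and 239 CPM in the SAL replicates. Replicate 2 was the highest in both conditions and the groups overlapped. With 0.48, 0.41 and 0.32 in the pairs, the log2 fold change was 0.40 ± 0.091 (SE, with an adjusted p of 0.00501). Of its exon bases 21% overlap MRNIP on the other strand, which had a value of -0.28 (adjusted p = 0.269). NBR1, a receptor that binds p62, had 76.1, 176 and 164 CPM in DMSO replicates 1, 2 and 3 and 108, 199.5 and 223 CPM in the SAL replicates and a log2 change of 0.37 ± 0.10 (SE, with an adjusted p of 0.0128). Without replicate 3, SQSTM1 was at 0.44 (adjusted p = 0.146) and NBR1 at 0.34 (adjusted p = 0.292).

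**Figure D3:**
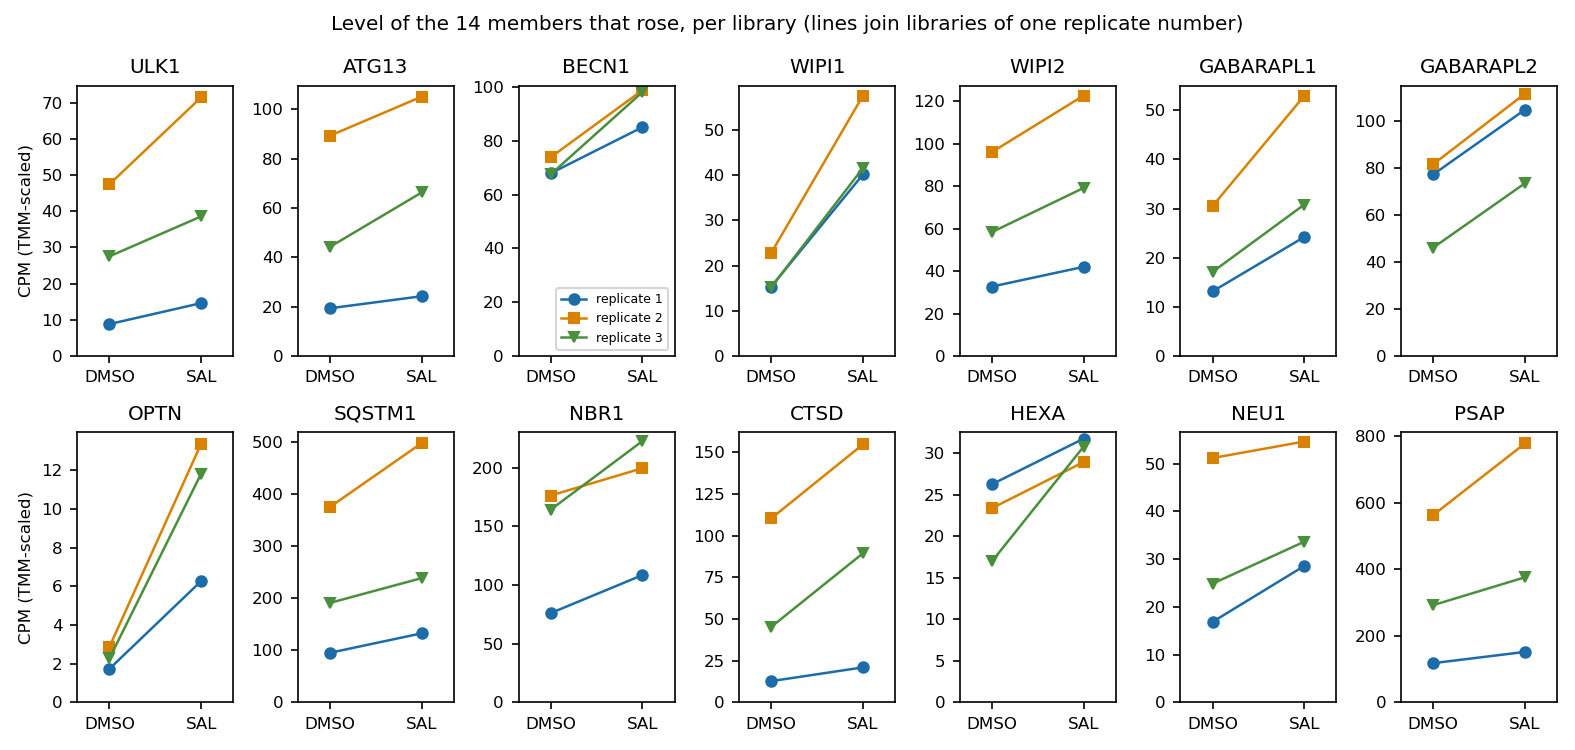
CPM per library of the 14 genes that rose, with DMSO and SAL on the x axis and a line joining the libraries of one replicate number. All 42 lines rise, and for OPTN, WIPI1, BECN1 and HEXA the SAL points all lie above the DMSO points.

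The promoters of 6 lysosomal genes are shown because they hold the E-box that the MiT/TFE factors bind. RefSeq promoters (GRCh38.p14, from 250 bases before to 50 bases after the annotated start) were found by symbol for 36 of the 42 genes, not for UVRAG, ATG4D, LAMP2, CTSB, HEXA or PSAP. The E-box CACGTG, which reads the same on both strands, was present in 6 of 8 lysosomal genes with a promoter (75%) and in 2 of 25 autophagosome genes (8%, ATG3 and ATG14), against 8.77% of all 27305 genes with a promoter. NPC1 and CTSL hold none. Of the further genes with a promoter it was present in 11 of 47 lysosomal (23.4%) and 5 of 30 autophagy genes (16.7%), so the share among the 8 does not stand for lysosomal genes at large. The longer CLEAR core TCACGTGA, which contains the E-box, was present in 4 of the 8 lysosomal genes, 1 of the 25 autophagosome genes and 5 of the 47 further lysosomal genes (10.6%), against 1.18% of all genes. In the 80 bases printed per gene, E-boxes are in capitals, and the strand is that of the gene.
CTSD: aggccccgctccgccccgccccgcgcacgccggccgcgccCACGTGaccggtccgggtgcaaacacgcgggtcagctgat
NEU1: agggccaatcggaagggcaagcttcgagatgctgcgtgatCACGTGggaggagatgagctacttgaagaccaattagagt
GAA: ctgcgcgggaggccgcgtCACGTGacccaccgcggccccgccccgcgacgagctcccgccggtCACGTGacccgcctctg
CTSA: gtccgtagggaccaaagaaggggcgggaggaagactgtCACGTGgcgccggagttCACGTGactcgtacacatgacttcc
MCOLN1: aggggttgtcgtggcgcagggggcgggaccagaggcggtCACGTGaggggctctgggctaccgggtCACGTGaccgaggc
LAMP1: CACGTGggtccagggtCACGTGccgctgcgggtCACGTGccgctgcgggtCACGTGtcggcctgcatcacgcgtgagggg
These windows lie at chr11:1763935-1764014 (minus strand), chr6:31862908-31862987 (minus), chr17:80101487-80101566 (plus), chr20:45891255-45891334 (plus), chr19:7522544-7522623 (plus) and chr13:113297047-113297126 (plus). CTSD and NEU1, which rose, each hold 1 E-box and no TCACGTGA. The 4 genes with TCACGTGA, namely GAA, CTSA, MCOLN1 and LAMP1, hold 2 to 6 E-boxes in the whole promoter, and none of them was called. Of the 10 up-regulated autophagosome genes, all with a promoter, none holds an E-box in this stretch. A match is a sequence description only, and no match concerns only these letters in this stretch.

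Cathepsin D and the enzymes of glycan and sphingolipid breakdown held the 4 lysosomal genes that rose. CTSD, the main aspartic protease of the lysosome (chromosome 11, 1773982 to 1785803 on the minus strand in GRCh37), had 12.8, 110.3 and 45.3 CPM in DMSO replicates 1, 2 and 3 and 21.0, 155 and 89.4 CPM in the SAL replicates. The levels of the replicate numbers were several-fold apart and the groups overlapped, but each pair was higher in SAL, by 0.71, 0.49 and 0.98. The fitted log2 fold change was 0.72 ± 0.11 (SE, with an adjusted p of 0.000315), a 1.65-fold level, and it was 0.58 without replicate 3 (adjusted p = 0.0542). Of the other cathepsins, the cysteine protease CTSB had 58.2, 177 and 101 CPM in DMSO and 64.3, 190.3 and 112 CPM in SAL and a log2 change of 0.13 ± 0.092 (SE, with an adjusted p of 0.374). CTSL, with 24.3 to 45.2 CPM, had -0.10 (adjusted p = 0.631) and was lower in 2 of 3 pairs.

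PSAP encodes prosaposin, the precursor of the saposins that present sphingolipids to hydrolases (chromosome 10, 73576055 to 73611008 on the minus strand in GRCh37). It had 118, 563 and 292 CPM in DMSO replicates 1, 2 and 3 and 152, 778 and 376 CPM in the SAL replicates. The rise within pairs was even, at 0.36, 0.47 and 0.36, and the log2 fold change was 0.40 ± 0.090 (SE, with an adjusted p of 0.00478). HEXA, the alpha subunit of beta-hexosaminidase A, which degrades GM2 ganglioside (chromosome 15, 72633265 to 72668761 on the minus strand in GRCh37), had 26.3, 23.4 and 17.0 CPM in DMSO replicates 1, 2 and 3 and 31.8, 28.9 and 30.8 CPM in the SAL replicates. Here the groups did not overlap, the rise was largest in pair 3 (0.27, 0.30 and 0.85), and the log2 fold change was 0.47 ± 0.14 (SE, with an adjusted p of 0.0269). The sialidase NEU1 (chromosome 6, 31825436 to 31830682 on the minus strand in GRCh37) had 16.8, 51.1 and 24.9 CPM in DMSO replicates 1, 2 and 3 and 28.6, 54.6 and 33.6 CPM in the SAL replicates. Its pairs differed by 0.75, 0.094 and 0.43, and its log2 fold change of 0.40 ± 0.13 (SE, with an adjusted p of 0.0451) was close to the threshold, with an adjusted p of 0.134 by DESeq2 and 0.171 without replicate 1 (log2 fold change 0.25). HEXA had an adjusted p of 0.105 by DESeq2.

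GAA, which degrades glycogen, and CTSA, which protects NEU1 and beta-galactosidase from degradation, had log2 fold changes of 0.27 ± 0.12 (SE, with an adjusted p of 0.137) and 0.15 ± 0.17 (SE, with an adjusted p of 0.609). GAA was higher in all 3 pairs and CTSA in 1 of 3. Without replicate 3 PSAP was at 0.42 (adjusted p = 0.185), HEXA at 0.29 (adjusted p = 0.439) and NEU1 at 0.40 (adjusted p = 0.282), so that no lysosomal gene was called, with CTSD and PSAP at an unadjusted p under 0.05.

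None of the 4 genes of the lysosomal membrane was called or had an unadjusted p under 0.05 by edgeR or DESeq2 with the block. At most 1 of them reached an unadjusted p under 0.05 in edgeR without a filter or without replicate 1, and none was called there. LAMP1, a main glycoprotein of this membrane, had 40.6, 185 and 117 CPM in DMSO replicates 1, 2 and 3 and 44.6, 202 and 142 CPM in the SAL replicates. SAL was higher in each pair, by 0.13, 0.13 and 0.29, and the log2 fold change was 0.19 ± 0.095 (SE, with an adjusted p of 0.193). LAMP2, the other main glycoprotein, had 271, 258 and 313 CPM in DMSO replicates 1, 2 and 3 and 268, 203 and 313 CPM in the SAL replicates and a log2 change of -0.12 ± 0.10 (SE, with an adjusted p of 0.438), lower in pair 2 by 0.34 and almost equal in the others. The sterol exporter NPC1 and the calcium channel MCOLN1 had log2 fold changes of 0.15 (adjusted p = 0.289) and 0.020 (adjusted p = 0.956).

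Per length of exon, PSAP was the most abundant of the 42 in DMSO with 104 ± 72.0 CPM per kb (SD, n = 3), followed by SQSTM1 with 29.3 ± 18.9, LAMP2 with 26.4 ± 2.71, GABARAPL2 with 22.7 ± 6.44 and LAMP1 with 19.9 ± 12.6. The SDs are between libraries that all genes share, and differences between genes were not tested. At the lower end stood OPTN with 0.446 ± 0.111, TFEB with 1.04 ± 0.444, HEXA with 1.40 ± 0.299 and ATG10 with 1.55 ± 0.629. In SAL, PSAP was at 139.7 ± 102 and OPTN at 2.04 ± 0.727 CPM per kb. Exon lengths are unions over all annotated transcripts, so a gene with many long rare isoforms, such as HEXA with 15893 bases, appears low.

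For many members the levels differed widely between replicate numbers. Each of the 10 members with an exon GC content above 58% had its lowest DMSO level in replicate 1, and DMSO replicate 2 was 2.15 to 8.65 times as high. Of the 6 members below 42%, 1 had its lowest DMSO level in replicate 1, and the ratio was 0.418 to 1.29. Across the 42 genes, which share these libraries, the log2 ratio of DMSO replicate 2 to replicate 1 correlated with GC content at r = 0.84, whereas the fitted SAL response correlated with it at r = 0.058. The paired fit compares libraries of the same number. Without the replicate block no member was called, against 0.125% of all genes, with WIPI1 and OPTN at an unadjusted p under 0.05, while the medians were 0.18 for both groups of genes.

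Among further genes of autophagy more were called up than down. Of 29 further autophagy genes tested, 12 rose and 1 fell, against 11.5% and 9.37% of all genes, and their median log2 fold change was 0.26. DESeq2 called 6 up and 1 down, against 8.24% and 5.2% of all genes. Without replicate 2 edgeR called 7 up and 1 down. Without replicate 3 it called 0 up and 1 down, and 8 were higher at an unadjusted p under 0.05. The shares above belong to fits of all 6 libraries and do not apply where a replicate is left out. Over all genes tested, edgeR called 750 up and 483 down without replicate 3. The mitophagy receptor BNIP3 and the cargo receptor TAX1BP1 rose, with 299, 265 and 158 CPM in DMSO and 433, 353 and 227 CPM in SAL for the former. Their log2 fold changes were 0.49 ± 0.090 (SE, with an adjusted p of 0.00104) and 0.48 ± 0.091 (SE, with an adjusted p of 0.00128). The further cargo receptors CALCOCO2 and TOLLIP were not called by edgeR. CALCOCO2 had -0.19 (adjusted p = 0.189) and was lower in each pair, and TOLLIP had 0.29 (adjusted p = 0.0853). The gene that fell was FAM134B, now RETREG1, a receptor for degradation of the endoplasmic reticulum, with 31.7, 40.5 and 52.1 CPM in DMSO and 17.7, 18.4 and 28.1 CPM in SAL. Its SAL libraries all lay below its DMSO libraries, against 3.73% of all genes, and the log2 fold change was -0.96 ± 0.12 (SE, with an adjusted p of 4.02e-05). None of the 6 genes of the HOPS complex, which tethers autophagosomes to lysosomes, was called or had an unadjusted p under 0.05 by edgeR or DESeq2 with the block, and their median was 0.090. In the fit corrected for GC content and length 1 of them was called up. In edgeR without a filter, and likewise without replicate 2, 1 of the 6 was higher at an unadjusted p under 0.05 and none was called.

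Of 36 further lysosomal hydrolases tested, 11 rose (30.6%, against 11.5% of all genes) and 3 fell (8.33%, against 9.37%), with a median of 0.19. DESeq2 called 7 up and 1 down, against 8.24% and 5.2% of all genes. With edgeR 5 were up and 2 down without replicate 2. Without replicate 3, 3 were up and 0 down, against 750 and 483 of all genes tested. In that fit 2 were lower at an unadjusted p under 0.05. Acid ceramidase, ASAH1, had 472, 197 and 317 CPM in DMSO and 874, 371 and 594 CPM in SAL. Its log2 fold change was 0.90 ± 0.089 (SE, with an adjusted p of 3.1e-06), with nearly equal differences of 0.89, 0.91 and 0.90 in the pairs. The cathepsin gene CTSO rose without overlap between the groups, with a log2 fold change of 0.99 ± 0.14 (SE, with an adjusted p of 9.84e-05), whereas the cathepsin gene CTSH fell, with -0.46 ± 0.093 (SE, with an adjusted p of 0.00225). The other 2 that fell were CTSV, with -0.92 (adjusted p = 0.0121), and the sulfatase ARSB, with -0.37 (adjusted p = 0.0451). GLB1, the lysosomal beta-galactosidase whose activity is read out by senescence-associated staining, had 13.9, 31.9 and 20.8 CPM in DMSO and 14.9, 29.4 and 17.9 CPM in SAL. Its groups overlapped almost fully, and the log2 fold change was -0.088 ± 0.14 (SE, with an adjusted p of 0.717).

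Among 16 further genes of lysosomal membrane or export proteins, 6 rose (37.5%, against 11.5% of all genes) and 1 fell (6.25%, against 9.37%). Their median was 0.27. CD63, a tetraspanin of late endosomes and lysosomes, had a log2 fold change of 0.70 ± 0.10 (SE, with an adjusted p of 0.000133), HGSNAT, which acetylates heparan sulfate at the membrane, 0.67 ± 0.10 (SE, with an adjusted p of 0.000254), and OSTM1, the partner of the chloride transporter CLCN7, 0.64 ± 0.12 (SE, with an adjusted p of 0.00101). The 1 that fell was LAPTM4B, with -0.59 (adjusted p = 0.00134). Of 16 subunits of the V-ATPase, the proton pump that acidifies the lysosome, 4 rose (25%, against 11.5% of all genes) and none fell (against 9.37%). In SAL 15 of the 16 were higher, against 8392 of all 16835 genes, and their median was 0.25. The subunits ATP6V1D, ATP6V0E1, ATP6V1G1 and ATP6V1C1 had log2 fold changes of 0.61 (adjusted p = 0.000322), 0.57 (adjusted p = 0.000564), 0.65 (adjusted p = 0.00164) and 0.41 (adjusted p = 0.00589). By DESeq2 none of the 16 fell and 4 rose, against 5.2% and 8.24% of all genes. Without replicate 3 edgeR called only ATP6V1D, at 0.57 (adjusted p = 0.0467). For the 16 membrane and export genes the counts were 5 up and 1 down by DESeq2. Without replicate 3 they were 2 up and 0 down, against 750 and 483 of all genes tested. In that fit 1 was lower at an unadjusted p under 0.05.

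Of 9 genes that sort hydrolases to the lysosome, 2 rose (22.2%, against 11.5% of all genes) and none fell (against 9.37%). IGF2R, the large mannose 6-phosphate receptor, had 78.3, 442 and 331 CPM in DMSO replicates 1, 2 and 3 and 189.8, 822 and 706 CPM in the SAL replicates. Each pair was higher, by 1.27, 0.89 and 1.09, and the log2 fold change was 1.08 ± 0.10 (SE, with an adjusted p of 1.31e-06). GNPTG, a subunit of the enzyme that adds the mannose 6-phosphate tag, had 0.59 (adjusted p = 0.0261), but an adjusted p of 0.139 by DESeq2, 0.186 without replicate 2 and 0.233 without replicate 3, where IGF2R alone was called. The other 7 were not called, and the median of the 9 was 0.0062. Of these 7, M6PR was lower in each pair, with differences of -0.34, -0.21 and -0.27. Its log2 fold change was -0.27 ± 0.096 (SE, with an adjusted p of 0.0561 by edgeR). At an unadjusted p under 0.05, 1 of the 9 was lower by edgeR and 0 by DESeq2.

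The genes of mTORC1 and nutrient sensing were called in both directions, 5 up (18.5%, against 11.5% of all genes) and 4 down (14.8%, against 9.37%) of 27, with a median of -0.017. DESeq2 called 3 up and 2 down, against 8.24% and 5.2% of all genes. Without replicate 3 edgeR called 1 up and 2 down, against 750 and 483 of all genes tested. MTOR, the kinase, had 49.2, 169 and 133 CPM in DMSO replicates 1, 2 and 3 and 108, 323 and 288 CPM in the SAL replicates, a log2 fold change of 1.06 ± 0.095 (SE, with an adjusted p of 1.07e-06). Its inhibitor DEPTOR had 12.6, 34.6 and 25.9 CPM in DMSO and 5.25, 17.4 and 10.3 CPM in SAL and fell, with -1.17 ± 0.15 (SE, with an adjusted p of 5.52e-05). SESN3, a stress-induced inhibitor of mTORC1 signalling, had 668, 1463 and 1539 CPM in DMSO and 344, 530.3 and 639 CPM in SAL and fell, with differences of -0.96, -1.46 and -1.27 in the pairs and a fitted change of -1.23 ± 0.11 (SE, with an adjusted p of 7.65e-07). In SAL each SESN3 level was below the lowest DMSO level. Its relatives SESN1 and SESN2 fell as well, with -0.40 (adjusted p = 0.0211) and -0.56 (adjusted p = 0.0182). The other 4 that rose were the folliculin partner FNIP2 (0.60), the mTORC1 inhibitor TSC2 (0.46) and the Ragulator subunits LAMTOR5 (0.42) and LAMTOR1 (0.35).

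**Figure D4:**
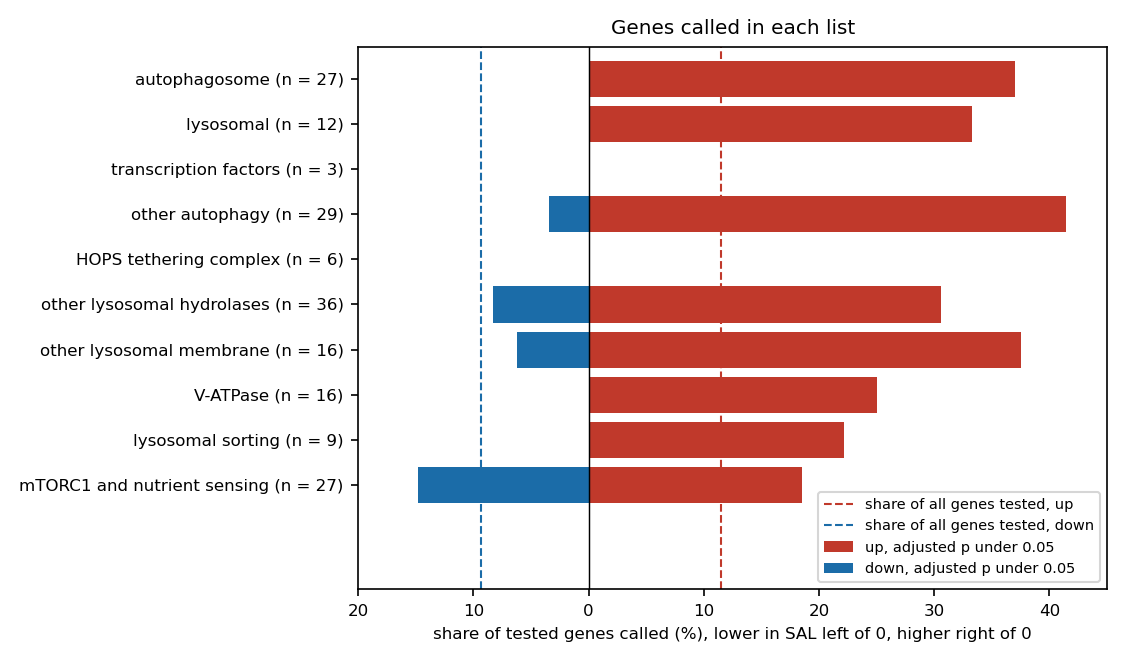
Share of tested genes called in each list (x axis, %, higher in SAL to the right of 0 and lower to the left), with dashed lines at the shares of all genes tested, 11.5% up and 9.37% down. The autophagosome (37%) and lysosomal (33.3%) genes pass the dashed line, as do the further autophagy genes (41.4%), membrane genes (37.5%), hydrolases (30.6%), V-ATPase (25%), sorting (22.2%) and mTORC1 genes (18.5%), and the transcription factors and the HOPS complex have no called gene.

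Leaving out replicate 3 removed most of the calls. Without it ULK1, WIPI1, GABARAPL1 and OPTN were called, with log2 fold changes of 0.65, 1.36, 0.83 and 2.06, and the other 10 of the 14 kept a positive value but not the call, while up-regulated genes over the whole table fell from 1931 to 750.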

How the data were processed

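The deposited values are raw counts per gene symbol, made by the authors from read 1 of each pair, mapped to hg19 with TopHat2 2.1.0 and counted on GENCODE exons without regard to strand with HTSeq 0.11.2. No normalization was applied before deposit. Here 523 rRNA gene symbols were removed, as in the study, and the tallies of uncounted reads were left out. Of all reads tallied per library, 24.0% to 48.3% lay outside the annotated exons, which does not place them outside genes. The filter filterByExpr kept 16835 of 55765 symbols. After TMM normalization the SAL and DMSO libraries were fitted in edgeR 4.0.16 (R 4.3.3) and tested by quasi-likelihood, blocking on the replicate number, with robust dispersions and Benjamini-Hochberg adjustment over all genes tested, called at 0.05. The block follows the paired test of the study, which used DESeq2. Libraries with the same number deviated together from their group means (r = 0.89, 0.86 and 0.74 over genes). Per the study, the experiment was repeated independently for each of the 3 replicates, while the labels give only the numbers. The standard error (SE) was derived from the F statistic and the size of each change. Pair differences use log2 CPM with a prior count of 2. The fit was tested on simulated data, in which more than the nominal share of calls were unchanged genes, so calls near the threshold are less certain.

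Alternatives were DESeq2 1.42.0 with the block, its size factors in edgeR, no block, all genes without a filter, a minimum of 10 counts per library, retention of rRNA genes, a GC content and length correction with the block, and each replicate number left out. Members and lists were set by name and function, not by a measured value, but with earlier results of these data known. Named in full were the members called with 1 direction in all pairs and 11 set genes (TFEB, TFE3, MITF, ULK1, BECN1, MAP1LC3B, SQSTM1, LAMP1, LAMP2, CTSB and CTSD), then up to 3 called genes per further list and GLB1. Other genes were named after their values were seen. Positions, exon length, GC content and overlaps come from GRCh37 with GENCODE v44 lifted to it, newer than the annotation counted on, and older symbols were matched through RefSeq synonyms. GC content and length were known for 84% of tested genes and all members.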

Additional observations from a re-analysis of the deposited data

How the results depend on the processing

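The 10 alternatives gave 420 values for the 42 members, of which 368 kept direction and side of the threshold, 31 lost the call, 4 gained it and 17 changed sign, none of the last past the threshold. Only a called member can lose the call, so the 31 all belong to the 14 called members, each with 10 values. None of the 14 called members changed sign. Without the replicate block 18 genes were up-regulated and 3 down-regulated over the whole table, and 0 autophagosome and 0 lysosomal genes were called. With DESeq2 and the block 852 genes were down-regulated and 2 lysosomal genes up-regulated, with HEXA, NEU1 and ATG13 losing the call, and the correction for GC content and length called 1 autophagosome gene down, ATG7. Leaving out each replicate number in turn gave 750 to 2443 up-regulated and 483 to 1955 down-regulated genes, 4 to 11 up-regulated autophagosome genes and 0 to 4 up-regulated lysosomal genes, the lowest each time without replicate 3. NEU1 was called in 3 of the 10 alternatives. ATG4A gained the call with no filter (0.41), with the GC and length correction (0.43) and without replicate 2 (0.57). The cause of these changes was not tested. The values that changed sign were ATG3 with DESeq2 size factors (-0.0034), without the block ATG2B (-0.0044), ATG3 (-0.016), ATG12 (-0.0048) and MCOLN1 (-0.012), and with the GC and length correction TFE3 (-0.056) and MCOLN1 (-0.091). With 1 replicate number left out the sign changed for TFEB (-0.25 to 0.083), ATG2B (-0.13 to 0.12), ATG3 (-0.080 to 0.090), ATG4B (-0.081 to 0.026), ATG5 (-0.014 to 0.054), ATG10 (-0.29 to 0.047), ATG12 (-0.049 to 0.037), MCOLN1 (-0.073 to 0.12) and CTSA (-0.11 to 0.34). The medians of the autophagosome and lysosomal genes moved by less than the spread between pairs in all 10. Depth limits OPTN in DMSO, with 14 to 21 counts per library, and TFEB, with 23 to 98.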

Other observations

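The processed pseudogene ATG12P2 (chromosome 2, 223769358 to 223769773 in GRCh37, minus strand) rose far more than its parent ATG12. It had 12, 3 and 19 counts in the DMSO libraries and 98, 65 and 100 in the SAL libraries, a log2 fold change of 2.88 ± 0.29 (SE, with an adjusted p of 4.07e-06 by edgeR), against 0.0074 for ATG12. ATG12P2 lies within the span of ACSL3 (223725660 to 223809357, plus strand), which encodes an acyl-CoA synthetase and had 1938 to 3083 counts in the DMSO libraries and 15565 to 22400 in the SAL libraries, a log2 fold change of 2.70 ± 0.098 (SE, with an adjusted p of 5.69e-11 by edgeR). The counting ignored strand, and whether reads of ACSL3 were counted for ATG12P2 was not tested. Both genes were named after their values were seen.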
